A study of Arabidopsis thaliana with 28 samples.

Results

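CML41 (AT3G50770) and CML30 (AT2G15680) are calmodulin-like genes of Arabidopsis thaliana. They were chosen by name, as the probes whose annotation lists exactly 1 gene and that gene is CML41 or CML30. Each gene had 1 probe, so these are 2 of the 692 single-gene probes and 2 of the 3439 probes in the table. The first group was wild-type Columbia-0 grown on Murashige and Skoog (MS) medium, a mineral medium for plant culture, with 2% sucrose (14 arrays). The second was the same ecotype on MS medium without added sucrose (14 arrays). All plants were wild type, and the labels give no organ, age, light regime or number of plants. The question was whether sucrose in the medium goes with a different transcript level of these genes, and how closely the genes follow each other. Because whole plants or organs may differ in their cells, fewer cells of a type and less RNA per cell cannot be told apart.

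Calmodulin and its relatives are small calcium sensors. A stimulus raises calcium in the cell, calcium binds the EF-hand loops of the sensor, and the sensor then binds and regulates other proteins. Calmodulin-like proteins share the EF hands of calmodulin but differ from it in sequence and in where they act. CML41 is known as a protein of plasmodesmata, the channels between plant cells, where it promotes callose deposition after perception of bacterial flagellin. CML30 is known as a calmodulin-like protein found in mitochondria.

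Arrays with consecutive replicate numbers resembled each other (r = 0.903 to 0.989 over all probes, against at most 0.973 between other arrays), and 26 of the 28 arrays were closest to their consecutive partner. They were averaged into 7 sets of 2 arrays per group. Nothing in the labels says that the sets came from different cultures. The p-values below therefore rest on the spread among sets, which may be technical. Sucrose set 1 and no-sucrose sets 1 and 2 stood apart from their groups in an earlier analysis of these data. The median deposited signal over all probes was 0.339 in sucrose set 1 and 0.163 to 0.213 in sucrose sets 2 to 7. In no-sucrose sets 1 and 2 it was 0.182 and 0.213, and in no-sucrose sets 3 to 7 it was 0.344 to 0.432. Fold changes and correlations are therefore also given without these 3 sets. The sets were picked for lying away from their group, so leaving them out favours larger differences.

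Both genes fell on sucrose. CML41 was 2.26-fold lower and CML30 1.85-fold lower in plants with sucrose than in plants without it. The call of CML41 held under every scaling of the arrays and without any single set, and ended with the median signal of each set as a covariate (limma adjusted p = 0.134). The call of CML30 ended with that covariate (limma adjusted p = 0.604), with median centring of the arrays, with the set number as a block (limma adjusted p = 0.0994) and without any 1 of 10 of the 14 sets. Among all probes 30.0% passed the same test, 12.4% as lower on sucrose, so a call alone does not set either gene apart from the rest of the array.

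The signal of CML41 on single arrays, in the arbitrary units of the deposited table, was 0.0807 at the lowest, 0.138 at the median and 0.691 at the highest with sucrose. Without sucrose the lowest, median and highest arrays had 0.278, 0.653 and 0.801. No array was at or below the floor of 0.0483 that was set for low values. The sucrose arrays were low except for those of set 1, which averaged 0.658 and lay among the no-sucrose arrays. The other 6 sucrose sets had 0.0939 to 0.194, below each of the 7 no-sucrose sets, which had 0.288 to 0.791. No-sucrose sets 1 and 2, at 0.288 and 0.412, were the lowest of their group.

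CML30 had a lowest, median and highest array signal of 0.69, 1.19 and 3.12 with sucrose. Without sucrose these were 1.64, 2.89 and 4.27, and again no array was at or below the floor. Sucrose set 1, at 3.02, was the highest of its group and lay among no-sucrose sets 3 to 7, at 2.84 to 3.99. Sucrose sets 2 to 7 had 0.719 to 1.67, just below no-sucrose sets 1 and 2 at 1.70 and 1.79. On this scale all sucrose sets but set 1 were thus below all no-sucrose sets for both genes. The arrays are not scaled to each other here, and the median over all probes was also lower in sucrose sets 2 to 7 than in no-sucrose sets 3 to 7. The share of all probes with this pattern was not counted, so the pattern does not set these genes apart.

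**Figure D1:**
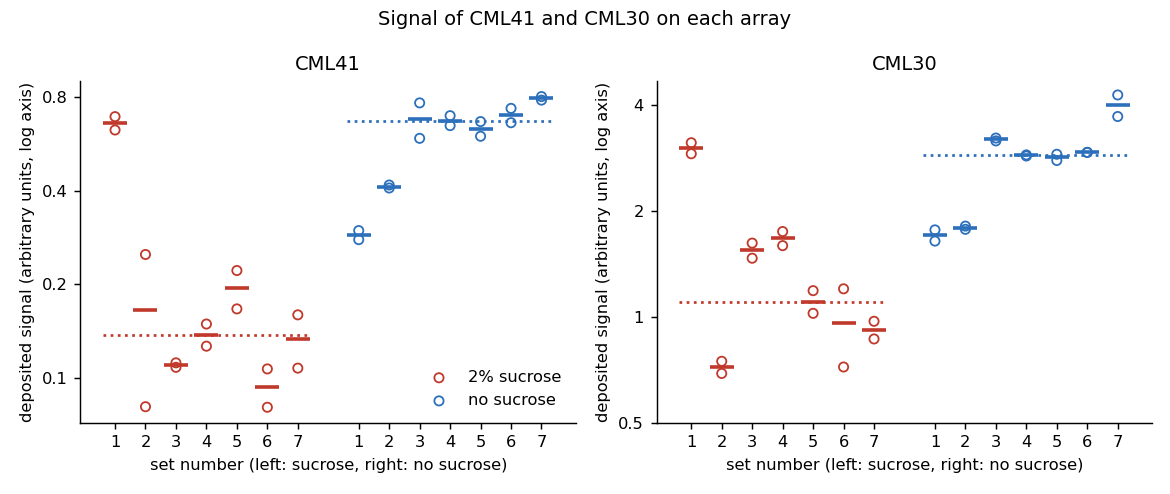
Deposited signal (arbitrary units, log axis) of CML41 and CML30 on each array (open circles), with the mean of each set (short bars) and the median of the sets of each group (dotted lines). Sucrose sets are on the left and no-sucrose sets on the right; sucrose set 1 lies at the no-sucrose level for both genes.

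After quantile normalization the log2 signal of CML41 averaged -2.26 ± 0.65 in the sucrose sets and -1.08 ± 0.21 in the no-sucrose sets (SD, n = 7 each). Sucrose minus no sucrose, this is -1.17 ± 0.25 (SE; 95% confidence interval -1.72 to -0.63), and the adjusted p from limma over all 3439 probes was 0.00718. It was lower than the no-sucrose mean in 6 of the 7 sucrose sets, and the same 6 lay below all 7 no-sucrose sets. Complete separation of sucrose from no-sucrose sets was found for 1.95% of all probes, and neither gene was among them. The share of all probes with 6 of the 7 sucrose sets apart was not counted. An exact two-sided permutation test over the sets, on this gene alone, gave p = 0.0035. Without sucrose set 1 the log2 fold change was -1.39, and without all 3 sets that stood apart it was -1.46 (limma adjusted p = 5e-05); 21.5% of all probes were then called lower.

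The log2 signal of CML30 averaged 0.50 ± 0.58 in the sucrose sets and 1.39 ± 0.52 in the no-sucrose sets (SD, n = 7 each). The change was -0.89 ± 0.29 on the log2 scale (SE; 95% confidence interval -1.51 to -0.26), and limma gave an adjusted p of 0.0351. It was lower than the no-sucrose mean in 6 of the 7 sucrose sets, and 5 of the 7 lay below all no-sucrose sets. The share of all probes with such a count was not determined. Sucrose set 4, at 1.05, was above no-sucrose sets 1 and 2, at 0.66 and 0.69, so after normalization the groups overlapped even without sucrose set 1. The exact permutation test on this gene alone gave p = 0.0146. Without the 3 sets that stood apart the log2 fold change was -1.34 (limma adjusted p = 0.000327), a 2.54-fold fall.

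The size of the falls depended on the scaling of the arrays. With the values as deposited, CML41 had a log2 fold change of -1.78 (limma adjusted p = 0.0103) and CML30 one of -1.07 (limma adjusted p = 0.0253). The median of all probes was then -0.31, and 21.5% were called lower. With each array centred on its median, CML41 had -1.16 (limma adjusted p = 0.00467) and CML30 -0.45 (limma adjusted p = 0.11). The median of all probes was then 0.31, and 12.6% were called lower. Under all 3 scalings both genes had a negative fold change, and that of CML41 was the more negative. With an offset of 0.1 added to every value in place of the floor, both had -0.84 after quantile normalization.

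**Figure D2:**
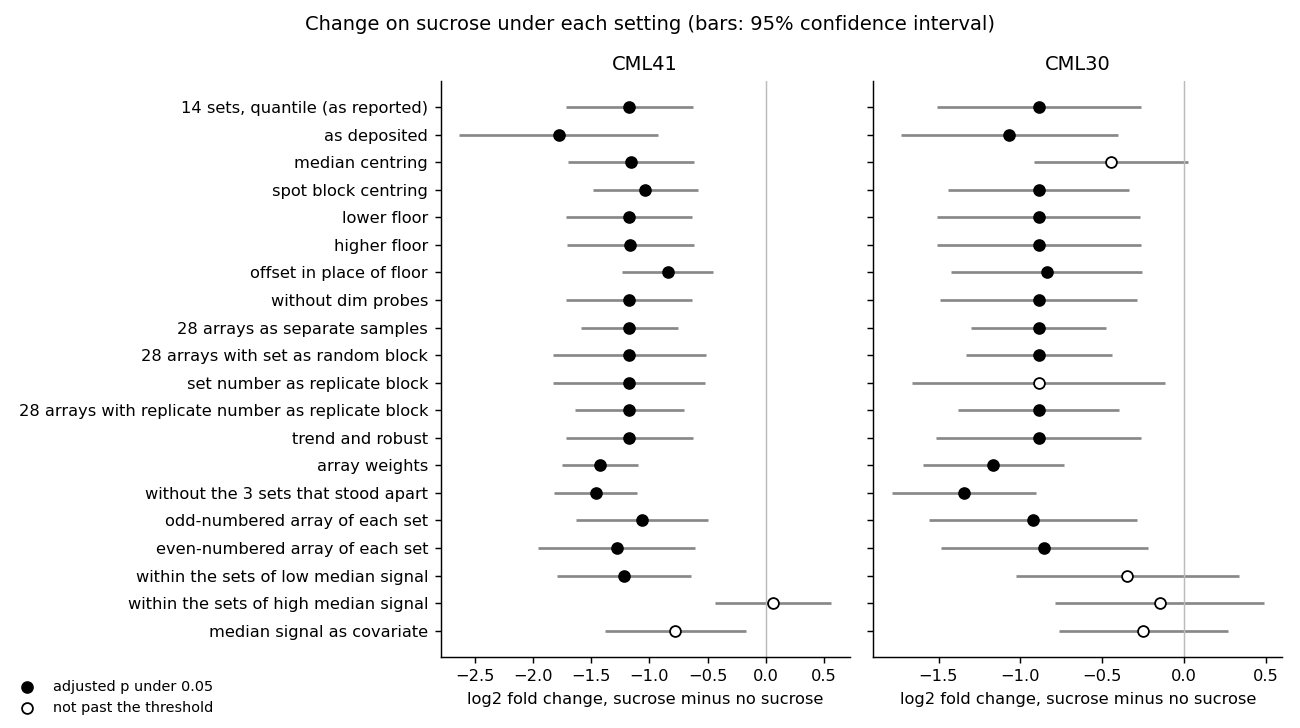
Log2 fold change, sucrose minus no sucrose (horizontal axis, with 95% confidence intervals), of CML41 and CML30 under each setting (rows). Filled circles passed an adjusted p of 0.05 in limma; CML41 passed in every row except within the sets of high median signal, where sucrose is 1 set, and with the median signal as a covariate, and CML30 failed in 5 rows.

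The values in no-sucrose sets 1 and 2 depended on the normalization. In the deposited values both genes were lower there than in no-sucrose sets 3 to 7, as given above. After quantile normalization CML41 had log2 signals of -1.40 and -1.11 in these 2 sets, close to the -1.31 to -0.86 of no-sucrose sets 3 to 7. CML30 had 0.66 and 0.69 there, under the 1.41 to 2.05 of no-sucrose sets 3 to 7 and within the 0.01 to 1.05 of sucrose sets 2 to 7. Sucrose sets 2 to 7 and no-sucrose sets 1 and 2 were the 8 sets with a median deposited signal under 0.25, so they were compared with each other. Among them CML41 had a change of -1.22 ± 0.24 (log2, SE), with a limma adjusted p of 0.0251. Its groups did not overlap, as was the case for 30.4% of all probes in this comparison of 6 with 2 sets. CML30 had -0.35 ± 0.28 (log2, SE; 95% confidence interval -1.03 to 0.34), with a limma adjusted p of 0.508. In the limma fit on these sets 12.5% of all probes passed.

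The other 6 sets had a high median signal, and sucrose was represented there by set 1 alone. Its log2 signals of -0.95 for CML41 and 1.52 for CML30 lay inside the ranges of no-sucrose sets 3 to 7. With 1 sucrose set, already known to lie at the no-sucrose level, these sets give no test of the medium. With the log2 median signal of each set as a covariate over all 14 sets, CML41 had -0.78 ± 0.28 (limma adjusted p = 0.134) and CML30 -0.25 ± 0.24 (limma adjusted p = 0.604). In that fit 25 probes passed, or 0.727%. Median signal and medium moved together, and the part of the median signal in the falls was not tested beyond these values.

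**Figure D3:**
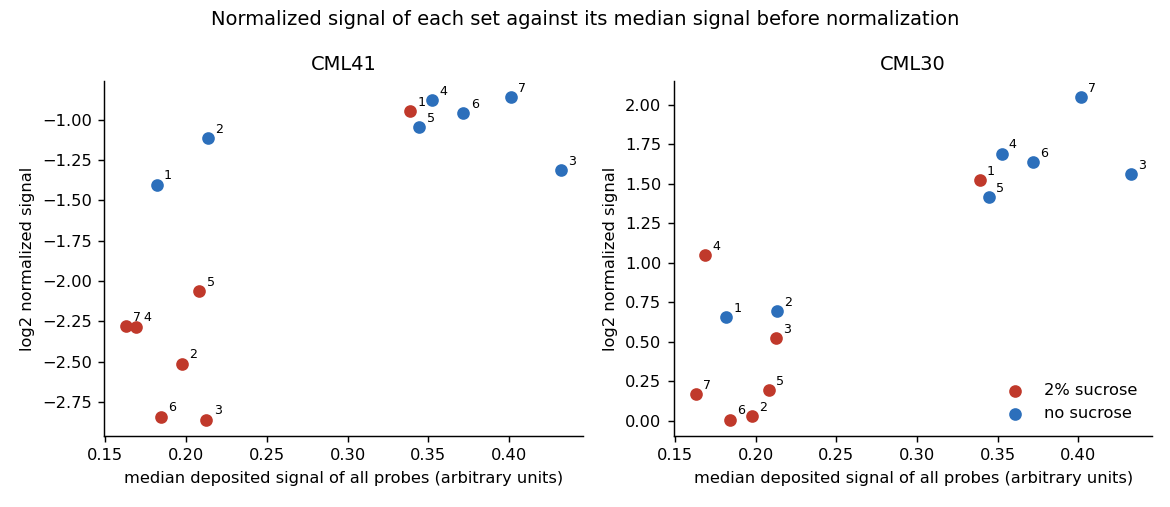
Log2 normalized signal of CML41 and CML30 in each set (vertical axes) against the median deposited signal of all probes in that set (horizontal axes, arbitrary units), with set numbers beside the points. Among the sets with a median under 0.25, no-sucrose sets 1 and 2 lie above all sucrose sets for CML41 and among them for CML30.

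Whether one gene fell further than the other was tested with the log2 signal of CML41 minus that of CML30 in each set. This difference averaged -2.75 ± 0.45 in the sucrose sets and -2.47 ± 0.41 in the no-sucrose sets (SD, n = 7 each). The change of CML41 was thus 0.29 more negative than that of CML30 on the log2 scale (-0.29 ± 0.23, SE), which was within the spread of the sets (exact two-sided permutation p = 0.234). Without normalization between arrays the difference of the changes was -0.71 (exact permutation p = 0.0111), and centring on the median gives the same value because a shift of a whole array cancels in it. Within the 8 sets of low median signal it was -0.87, with an exact permutation p of 0.0714, the smallest that 6 sucrose against 2 no-sucrose sets allow. With the offset of 0.1 in place of the floor it was -0.00478 (exact permutation p = 0.982), and without the 3 sets that stood apart -0.12 (exact permutation p = 0.597). A more negative change of CML41 was thus called with the deposited values and with median centring. It was called with none of the quantile-normalized settings in which a call was possible. Within the 8 sets of low median signal no outcome could have passed the threshold, so the missing call there does not speak for equal changes.

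Arrays of a set repeated CML30 more closely than CML41. The SD between the arrays of a set was 0.13 for CML30 and 0.39 for CML41 on the log2 scale, against 0.55 and 0.48 between the sets of a group. The widest gap was in sucrose set 2, where CML41 had a deposited signal of 0.249 on one array and 0.081 on the other. This gap was 1.79 on the log2 scale, against at most 0.579 for CML41 in any other set, so the SD of CML41 rests largely on it. With the odd-numbered array of each set alone the log2 fold change of CML41 was -1.07, and with the even-numbered array -1.28. CML30 had -0.92 (limma adjusted p = 0.0356) and -0.85 (limma adjusted p = 0.0476) in these fits, and both genes passed the threshold in both. Of all 3439 probes, 368 were called lower with the odd-numbered arrays and 374 with the even-numbered arrays.

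Within groups the genes followed each other in part. Among the 7 sucrose sets Pearson's r between CML41 and CML30 was 0.739 (exact permutation p = 0.0581, adjusted over 4 tests 0.109), and Spearman's rho was 0.464 (exact permutation p = 0.302, adjusted 0.302). Among the 7 no-sucrose sets r was 0.695 (exact permutation p = 0.0817, adjusted 0.109) and rho 0.893 (exact permutation p = 0.0123, adjusted 0.0492). Of these 4 tests the rank correlation without sucrose was the one past 0.05 after adjustment. Both genes were read from the same arrays and scaling, which these tests do not take into account. They therefore cannot set a relation of these genes apart from one shared with other probes.

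The relation with sucrose rested on set 1. Without sucrose sets 1 and 3, the farthest from the median of CML41, r was 0.382 (n = 5, exact permutation p = 0.417), and without set 1 alone it was 0.161 (n = 6, exact permutation p = 0.807). Without no-sucrose sets 1 and 3, chosen by the same rule, r in that group was 0.924 (n = 5, exact permutation p = 0.00833, the smallest that 5 sets allow). Without no-sucrose sets 1 and 2 it was 0.579 (n = 5, exact permutation p = 0.308), and rho was 0.9 (exact permutation p = 0.0833). The scaling moved these values too: with each array centred on its median r was 0.41 with sucrose and 0.267 without. With centring by blocks of 48 spots it was 0.686 with sucrose and 0.0931 without (exact permutation p adjusted over 4 tests, 0.357 and 0.963).

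**Figure D4:**
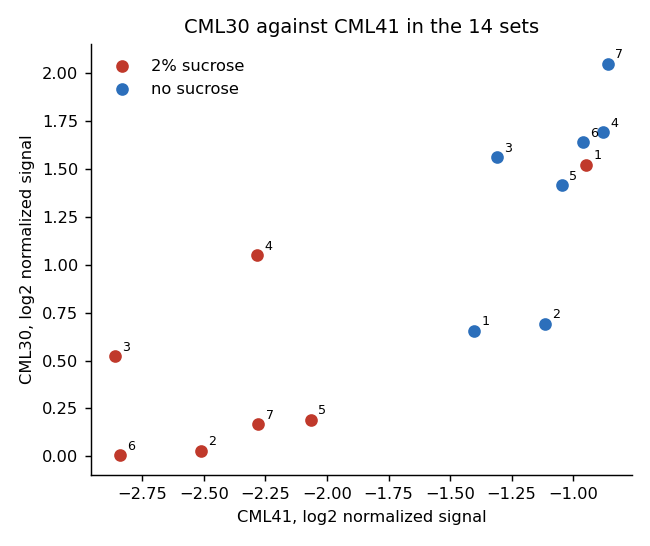
Log2 normalized signal of CML30 (vertical axis) against that of CML41 (horizontal axis) in the 14 sets, with set numbers beside the points. Sucrose set 1 lies with the no-sucrose sets, and the other 6 sucrose sets show little relation between the genes (r = 0.161).

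Set against the rest of the array, the likeness of the genes was moderate. Over deviations from the group means in the 14 sets, r between CML41 and CML30 was 0.665. Both values of a set come from the same arrays and scaling, so this is given as a description. Of 537 other genes with a single-gene probe and a signal above the floor in all but at most 3 sets, CML30 ranked 54 by likeness to CML41, and CML41 ranked 61 by likeness to CML30. The first principal component of the deviations of all other probes held 40.4% of their variance. It correlated in size at 0.705 with CML41 and 0.844 with CML30, and after its removal r between the genes was 0.183. Deviations in the median deposited signal (log2) correlated at 0.557 with those of CML41 and at 0.785 with those of CML30. Without the 3 sets that stood apart r was 0.249, and the ranks were 211 and 162.

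The genes most like CML41 were AT5G02710 (r = 0.915), AT3G16310 (0.904), AT1G16080 (0.888), AT5G63490 (0.857) and CUTA (0.837), over deviations from the group means in 14 sets. CUTA encodes a chloroplast protein related to the bacterial copper tolerance protein CutA. The genes most like CML30 were AT3G04650 (r = 0.912), AT2G46850 (0.902), AT3G44570 (0.89), AT1G03810 (0.888) and AT1G76450 (0.888). The lists of 5 shared 0 genes. Without the 3 sets that stood apart, r of the same 5 genes ran from 0.329 to 0.776 for CML41 and from 0.562 to 0.83 for CML30. In that case 0 of the 5 genes then most like CML41, and 2 of the 5 most like CML30, were among those named here.

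**Figure D5:**
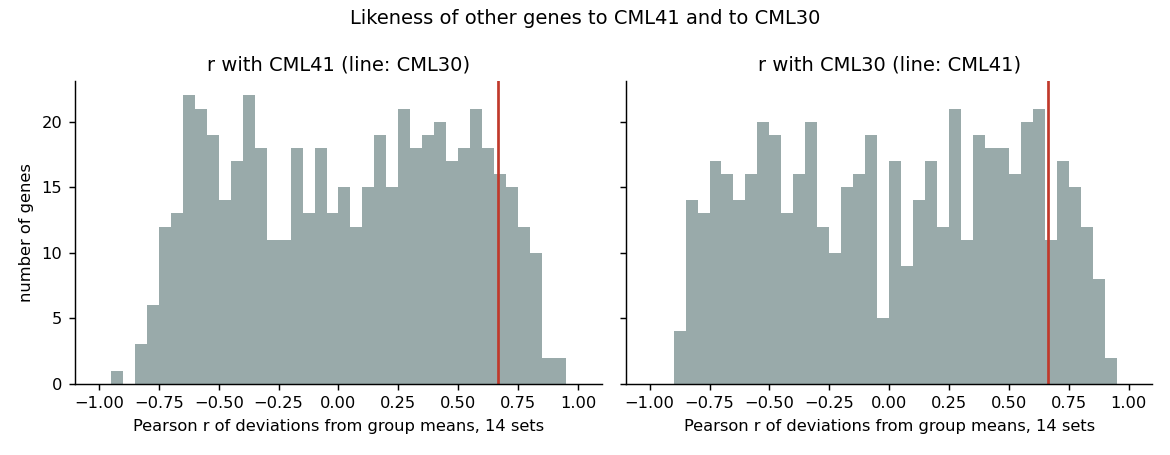
Number of genes (vertical axis) by Pearson's r with CML41 (left) and with CML30 (right) over deviations from group means in 14 sets, for 537 genes each. The line marks the other calmodulin-like gene at r = 0.665, below 53 genes on the left and 60 on the right.

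Few other calcium signalling genes could be assigned to a single-gene probe. Probes naming several genes (870) or not listed in the annotation (1877) were left out, so the number on the array is not known. A list of 212 genes, named as calmodulins, calmodulin-like proteins, calcium-dependent and CBL-interacting kinases, channels, pumps, exchangers, annexins or calmodulin-binding IQD proteins, had 5 members with a single-gene probe, CML41 and CML30 included. Of the 5, 2 fell, 2 rose and 1, IQD32, did not pass, a tally that changed with the settings given below, beside 12.4% of all probes lower and 17.6% higher on sucrose. The 5 had a median log2 fold change of 0.56, where the median over all probes was 0 by the normalization. The 2 that rose are a channel gene and a gene of a calmodulin-binding family, and so few genes give no contrast with the calcium sensors.

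GLR2.7 (AT2G29120), a glutamate receptor-like cation channel gene, had set signals of 0.427 at the lowest, 0.508 at the median and 0.662 at the highest with sucrose. Without sucrose these were 0.212, 0.344 and 0.548, so the groups overlapped. After normalization the change was 1.19 ± 0.31 on the log2 scale (SE), with a limma adjusted p of 0.0158. It passed under all 3 scalings and without any single set, with log2 fold changes of 0.61 as deposited and 1.63 without the 3 sets that stood apart. Within the 8 sets of low median signal it was 0.51 (limma adjusted p = 0.286), and with the median signal as a covariate 0.45 (limma adjusted p = 0.273). With the set number as a block it did not pass either (limma adjusted p = 0.0749).

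IQD22 (AT4G23060), of a family of plant proteins that bind calmodulin through IQ motifs, had set signals from 0.069 to 0.155 with sucrose and from 0.058 to 0.116 without. These ranges overlapped. The change was 0.97 ± 0.32 on the log2 scale (SE), with a limma adjusted p of 0.0367. Without scaling between arrays this was 0.39 and did not pass (limma adjusted p = 0.165), and leaving out any 1 of 11 of the 14 sets also ended the call. Without the 3 sets that stood apart it was 1.51 (limma adjusted p = 6.17e-05). It was 0.35 within the 8 sets of low median signal (limma adjusted p = 0.463) and 0.14 with the median signal as a covariate (limma adjusted p = 0.721). A filter on the dimmest 25% of probes removed this probe. The size of its change depended on the floor: it was 1.39 with the lower floor and 0.68 with the higher, and passed with both. The call ended with the set number as a block (limma adjusted p = 0.117) and with even-numbered arrays (limma adjusted p = 0.108).

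IQD32 (AT1G19870), of the same family, did not pass, at 0.56 ± 0.22 on the log2 scale (SE; 95% confidence interval 0.09 to 1.04) and a limma adjusted p of 0.0671. With the values as deposited it was -0.14, so its sign depended on the scaling. It passed without the 3 sets that stood apart (0.37, limma adjusted p = 0.0439), with spot block centring (0.70, limma adjusted p = 0.0255) and with the lower floor (0.52, limma adjusted p = 0.0237). It also passed with the offset in place of the floor (0.27, limma adjusted p = 0.0333) and with array weights (0.39, limma adjusted p = 0.0426). Over 28 arrays as separate samples it passed without (limma adjusted p = 0.0257) and with a block for the replicate number (limma adjusted p = 0.0296). Those fits count both arrays of a set separately, and with the set as a random block it did not pass (limma adjusted p = 0.288). Median centring, the higher floor, the dim-probe filter and the trend and robust fit gave no call (limma adjusted p = 0.0506 to 0.0721). Nor did the set number as a block (limma adjusted p = 0.0924), odd-numbered arrays (limma adjusted p = 0.0762) or even-numbered arrays (limma adjusted p = 0.386). Set signals were 0.0873 to 0.189 with sucrose and 0.0368 to 0.265 without, and 1 no-sucrose set was at or below the floor.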

How the data were processed

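Per the file headers, the deposited values are 28 columns with an intensity for every probe, linear and never negative; how the authors scanned, corrected and scaled the arrays is not given in the sources used here. The highest value per array was 81.5 to 100.0, between 409 and 601 probes per array were at 0, and the depth of an array cannot be given, so the number of arrays limits precision. Values were raised to 0.0483 (the 5th percentile of positive values), log2 transformed and quantile normalized. Consecutive arrays were averaged into sets, and groups were compared with limma 3.58.1 (lmFit, eBayes, two-sided) under R 4.3.3. P-values were adjusted over 3439 probes (Benjamini-Hochberg), with a threshold of 0.05. The fit was tested on simulated data. Exact permutation tests used SciPy 1.17.1. Fold changes are on the floored log2 scale, sucrose minus no sucrose.

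Gene names came from the platform annotation, matched to the RefSeq table of TAIR10.1 (690 of 692 single-gene probes); the table names no genome build, so no positions are given, and no sequences were used here. Named were CML41, CML30, every measured gene of the calcium list, and for each member the 5 genes with the highest r among those at the floor in at most 3 sets. Members and lists were chosen with earlier results of these data known. Alternatives covered scaling, floor, filter, replicate unit, block, variance model and sets left out. Comparisons within sets of low or high median signal, and the median signal as a covariate, were chosen after seeing the data. Sets were not paired by the replicate numbers that the groups share. Deviations of same-numbered sets correlated at -0.516 to 0.128, above 0.1 for 1 of 7 pairs, which cannot exclude a pairing.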

Additional observations from a re-analysis of the deposited data

Results flagged for a closer look

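Dixon's test marked a set far from the others in 2 of 12 groups of values (CML41, CML30, their difference and the 3 other calcium list genes, in each group). Chance gives about 1 in 20 per group, but the groups are not independent, as the difference is made from CML41 and CML30. Sucrose set 1 was also already known to stand apart, so its mark is not new. Sucrose set 1 had a log2 signal of -0.95 for CML41, against -2.86 to -2.06 in the other sucrose sets (gap over range 0.584, against a critical value of 0.568). No-sucrose set 1 had a log2 signal of -4.37 for IQD32, which is the floor set for low values and not a measured level, against -3.22 to -2.79 in the other no-sucrose sets (gap over range 0.729, a ratio that depends on the floor). Without that set IQD32 passed the threshold, with a log2 fold change of 0.37 (limma adjusted p = 0.0383).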

How the results depend on the processing

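CML41 was called lower on sucrose in 17 settings of scaling, floor, filter, replicate unit, block, variance model, test and arrays used (log2 fold change -1.78 to -0.84) and without any single set (-1.39 to -1.07, limma adjusted p up to 0.0171). Of the settings chosen after seeing the data, the sets of high median signal, with sucrose set 1 alone for sucrose and so no test, gave 0.064, and the median signal as a covariate ended its call (-0.78). CML30 was lower in the same 17 settings (-1.34 to -0.45). Its call ended with median centring (-0.45, limma adjusted p = 0.11), with the set number as a replicate block (-0.89, limma adjusted p = 0.0994), in the sets of low median signal (-0.35), in those of high median signal with their 1 sucrose set (-0.15), and with the median signal as a covariate (-0.25). Without single sets CML30 ran from -1.06 to -0.78, and its adjusted p from 0.006 to 0.0714. Only 1 of the 14 sets correlated best with its own number in the other group, which does not exclude a pairing by number.

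In all, 1033 probes passed. This was 1710 with 28 arrays as separate samples, 416 with the set number and 1611 with the replicate number of the arrays as a replicate block, 1842 with array weights, 1657 without the 3 sets that stood apart, 431 and 4 in the sets of low and high median signal, 25 with the covariate, and 764 to 1431 without single sets. The difference of the changes was called, at -0.71, as deposited and with median centring, and ran from -0.37 to -0.18 without single sets. Pearson's r was 0.948 as deposited and 0.847 with odd-numbered arrays in the no-sucrose group, and 0.592 (sucrose) and 0.604 (no sucrose) over single arrays. These passed after adjustment, but the test over single arrays counts both arrays of a set as separate samples, although they resembled each other. The deposited values are not scaled between arrays. In the no-sucrose group r was 0.267 with median centring and 0.0931 with spot block centring, and neither passed. Without single sets r ran from 0.161 to 0.822 with sucrose and from 0.48 to 0.885 without. Over both groups r was 0.826 with the groups pooled and 0.183 after removal of the first principal component. Without group centring, 5 of the 5 genes most like CML41 and 3 of the 5 most like CML30 were the same. The cause of these changes was not tested.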
